A study of Mus musculus with 8 samples.

Results

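Thyroid hormone receptors, transport and response genes were followed in the cortex of APP/PS1 mice given bexarotene, as 9 genes fixed by name: the receptor genes Thra and Thrb, the transporter gene Slco1c1, the deiodinase genes Dio2 and Dio3, and the response genes Hr, Klf9, Thrsp and Nrgn. They are 9 of the 22869 gene symbols in the deposited count table, each represented by its transcript row with the highest mean count, and all 9 passed the filter on low counts. The bexarotene group held 4 RNA sequencing libraries from APP/PS1 mice on the C57BL/6 strain that received bexarotene, an agonist of the retinoid X receptors. The vehicle group held 4 libraries from APP/PS1 mice of the same strain that received glycerol at 0.2 mg/kg. Both groups carry the APP and PS1 transgenes, which cause amyloid plaques, so no comparison with mice lacking plaques was made. The bexarotene dose, the treatment time, the age of the animals and the promoters of the transgenes are not stated in the sources used. The labels leave unsaid how many animals went into each library. The p-values therefore reflect the spread among these libraries alone, which may be technical in part.

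Thyroid hormone reaches the brain mainly as thyroxine, which crosses the blood-brain barrier through transporters such as the product of Slco1c1. In astrocytes and tanycytes the type 2 deiodinase, encoded by Dio2, converts thyroxine into the active hormone triiodothyronine, while the type 3 deiodinase, encoded by Dio3 and found mainly in neurons, inactivates both hormones. The nuclear receptors encoded by Thra and Thrb bind triiodothyronine and act on DNA mostly as pairs with a retinoid X receptor, which is the receptor that bexarotene activates. Hr, Klf9 and Nrgn are known as genes that thyroid hormone raises in the rodent brain, and Thrsp as one that it raises in liver and fat.

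The deiodinases share a catalytic residue, selenocysteine, that is written in the messenger RNA as TGA, a codon that elsewhere ends translation. The stretches around that codon are shown because this codon is what the activating and the inactivating enzyme have in common. They are from GENCODE M21 transcripts on GRCm38, 5′ to 3′ in the sense of the messenger RNA, with the selenocysteine codon in capitals, at chr12:90729802-90729846 (minus strand) for Dio2 and chr12:110279718-110279762 (plus strand) for Dio3.
Dio2: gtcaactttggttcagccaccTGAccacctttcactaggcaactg
Dio3: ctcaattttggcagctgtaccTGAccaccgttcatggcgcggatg
These coding stretches differed at 17 of 45 bases, and the longest run that both transcripts shared was 11 bases.

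The receptors resemble each other most in the domain that contacts DNA. The codons of the box that reads the response element are shown in capitals because similarity there bears on whether reads of Thra and Thrb can be told apart. Both stretches are on the plus strand and are interrupted by an intron in the genome, chr11:98756988-98760899 for Thra and chr14:18002593-18008592 for Thrb.
Thra: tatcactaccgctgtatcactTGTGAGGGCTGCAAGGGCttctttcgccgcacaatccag
Thrb: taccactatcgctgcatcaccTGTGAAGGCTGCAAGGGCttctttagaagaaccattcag
They differed at 11 of 60 bases and at 1 of the 18 bases in capitals. The longest run shared by the transcripts counted for Thra and Thrb was 26 bases. Upstream regions from RefSeq (GRCm38.p6) were at hand for 7 of the 9 genes, as 8 windows of 250 bases before a transcription start. The core motif of thyroid hormone response elements, AGGTCA, searched on both strands, was found in 1 of these windows, at Thrb, and in 14% of all 32851 windows. It is shown with its flanks from chr14:17660764-17660793 (plus strand), the motif in capitals.
Thrb: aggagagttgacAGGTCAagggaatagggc
A direct repeat, AGGTCA followed by AGGTCA in the same direction with any 4 bases between, was found in none of the 8 windows and in 0.0152% of all windows. Matches to AGGTCA include those within this repeat.

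Per library, the counts of all rows summed to 42413825 to 76542067. Rows of the same gene can repeat counts, as those of Slco1c1 did. With 1 row per gene symbol the sums were 29089954 to 52479182. The 7 markers of cortical excitatory neurons, such as Slc17a7, were all detected, with summed levels of 3966 to 5664 CPM (read counts scaled to library size) in bexarotene libraries and 3921 to 5507 CPM in vehicle libraries. The libraries did not differ by treatment alone. The first principal component of log2 CPM, with 36.5% of the variance, set replicates 1 and 3 apart from replicates 2 and 4 in either group. The summed level of 8 striatum markers, such as Drd2, was 1142 and 838 CPM in bexarotene replicates 1 and 3, 259 and 260 CPM in bexarotene replicates 2 and 4, 609 and 303 CPM in vehicle replicates 1 and 3, and 203 and 294 CPM in vehicle replicates 2 and 4. Xist, an RNA made in female cells, and Ddx3y, a gene of the Y chromosome, were both present in every bexarotene library, at 84.7 to 218 CPM and 4.43 to 40.7 CPM. Among vehicle libraries, Xist reached 248 and 307 CPM in replicates 1 and 3 with at most 0.212 CPM of Ddx3y, and vehicle replicates 2 and 4 had at most 0.861 CPM of Xist with 63.3 and 71.5 CPM of Ddx3y. Differences among replicates 1 and 3, and among replicates 2 and 4, therefore stand beside the values over all 8 libraries. Replicates 1 and 3 set bexarotene libraries holding both RNAs against vehicle libraries with Xist and almost no Ddx3y, and replicates 2 and 4 set them against vehicle libraries with Ddx3y and almost no Xist. Whether the bexarotene libraries are pools of animals is not stated in the labels.

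None of the 9 thyroid hormone genes passed the test between bexarotene and vehicle. With edgeR's quasi-likelihood test, an adjusted p below 0.05 over all 21285 rows tested was reached by 0 of the 9 genes and by 1 of all 16069 genes, 0.00622%. An unadjusted p below 0.05 was reached by 0 of the 9 genes and by 8.77% of all genes, 4.88% higher and 3.89% lower. DESeq2 called 0 of the 9 and 0.526% of all genes, and edgeR's exact test 0 of the 9 and 0.23%. The groups overlapped in all 9 genes, while they did not overlap in 5.77% of all genes, 3.61% higher and 2.16% lower. Log2 fold changes, bexarotene minus vehicle, lay between -0.20 for Hr and 0.23 for Thrsp, with 4 genes higher and 5 lower. Their median was -0.11, against 0.00092 over all genes tested. Levels are in CPM, scaled for library composition with TMM factors.

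**Figure D1:**
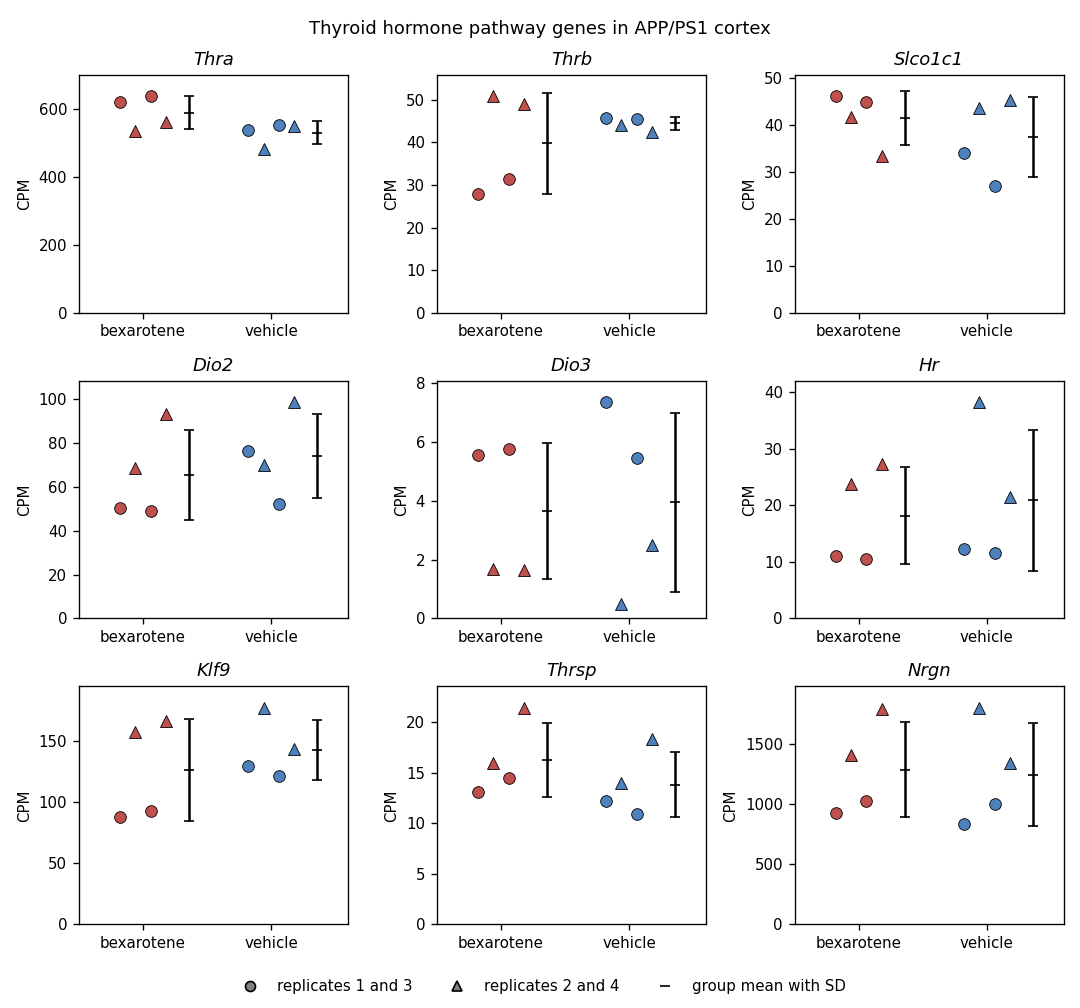
Level of each gene in CPM (vertical axes, from 0) in the bexarotene and vehicle libraries. Circles are replicates 1 and 3, triangles replicates 2 and 4, and the bar is the group mean with its SD (n = 4). Thrb was at 42.5 to 45.6 CPM in all 4 vehicle libraries. Dio3, Hr, Klf9, Thrsp and Nrgn separated circles from triangles within both groups, in the same direction. Thrb and Slco1c1 also separated them within both groups, but in opposite directions.

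Thra encodes the receptor form that prevails in the brain. Thra was at 622, 536, 637 and 562 CPM in bexarotene replicates 1 to 4, against 537, 482, 553 and 551 CPM in vehicle replicates 1 to 4. Bexarotene replicates 1, 3 and 4 lay above every vehicle library, and bexarotene replicate 2 lay below vehicle replicates 1, 3 and 4. Its mean was 589 ± 48.3 CPM in the bexarotene libraries and 531 ± 33.1 CPM in the vehicle libraries (SD, n = 4 each), a log2 fold change of 0.15 ± 0.08 (SE) with a 95% interval of -0.04 to 0.34. The adjusted p was 0.671, and an exact two-sided permutation test over the 8 log2 CPM values gave p = 0.143. The log2 difference came to 0.21 in replicates 1 and 3 and to 0.09 in replicates 2 and 4. With an offset for transcript length and GC content, the log2 fold change of Thra was 0.06.

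Nr1d1, the circadian repressor gene that lies tail to tail with Thra on the opposite strand, was checked as a possible source of shared reads. The longest Thra transcripts run into Nr1d1, but the transcript counted here shares 0 exon bases with the Nr1d1 transcript and ends 2820 bases short of it in GENCODE M21. Nr1d1 was at 197 ± 16.5 CPM in the bexarotene libraries and 182 ± 11.1 CPM in the vehicle libraries (SD, n = 4 each), and its adjusted p was 0.752.

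Thrb encodes the other thyroid hormone receptor and had 2 rows in the table. Its counted row was at 27.9, 50.8, 31.3 and 49.0 CPM in bexarotene replicates 1 to 4, against 45.6, 44.2, 45.5 and 42.5 CPM in vehicle replicates 1 to 4. The vehicle libraries lay close together, with bexarotene replicates 1 and 3 below all of them and bexarotene replicates 2 and 4 above all of them. The means were 39.7 ± 11.8 CPM in the bexarotene libraries and 44.4 ± 1.45 CPM in the vehicle libraries (SD, n = 4 each). The log2 fold change over all libraries was -0.16 ± 0.18 (SE), with an interval of -0.58 to 0.25, adjusted p = 0.869 and p = 0.429 in the exact two-sided permutation test. In replicates 1 and 3 the libraries differed by -0.62 on the log2 scale, but by 0.20 in replicates 2 and 4. The other Thrb row had a log2 fold change of -0.17. Its counts were close to those of the counted row in every library, such as 1658 against 1746 in bexarotene replicate 1. It therefore adds little separate evidence.

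Slco1c1 encodes a thyroxine transporter of brain endothelial cells and astrocytes. Its 2 rows held identical counts in every library. Slco1c1 was at 46.0, 41.6, 44.9 and 33.4 CPM in bexarotene replicates 1 to 4, against 33.9, 43.4, 27.0 and 45.2 CPM in vehicle replicates 1 to 4. In the vehicle group replicates 1 and 3 were the low libraries, and in the bexarotene group they were the high ones. The means were 41.5 ± 5.71 CPM in the bexarotene libraries and 37.4 ± 8.52 CPM in the vehicle libraries (SD, n = 4 each), a log2 fold change of 0.15 ± 0.17 (SE) with an interval of -0.22 to 0.52 and adjusted p = 0.862. The log2 difference came to 0.59 in replicates 1 and 3 and to -0.25 in replicates 2 and 4. With the level of Y-linked genes as a covariate, the log2 fold change of Slco1c1 over all libraries was 0.04. The 8 endothelial markers averaged 0.45 higher on the log2 scale in replicates 1 and 3, from -0.09 for Slc2a1 to 0.77 for Cldn5. In replicates 2 and 4 their mean difference was -0.07, while the 9 astrocyte markers differed by 0.12 and -0.03 in these sets of replicates. The part of cell makeup in the Slco1c1 values was not tested. In bulk tissue, fewer cells of a type and less RNA per cell cannot be told apart.

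Dio2, the gene of the enzyme that activates thyroxine, was at 50.5, 68.6, 48.9 and 93.1 CPM in bexarotene replicates 1 to 4, against 76.2, 69.9, 52.2 and 98.7 CPM in vehicle replicates 1 to 4. Replicate 4 was the highest library and replicate 3 the lowest in each group. The means were 65.3 ± 20.6 CPM in the bexarotene libraries and 74.3 ± 19.2 CPM in the vehicle libraries (SD, n = 4 each). The log2 fold change was -0.19 ± 0.25 (SE), with an interval of -0.75 to 0.38 and adjusted p = 0.889. In replicates 1 and 3 the difference was -0.34, and in replicates 2 and 4 -0.06. The fitted value was -0.01 without vehicle replicate 4 and -0.40 without bexarotene replicate 4. The sign of the Dio2 fold change held in all 25 alternative fits.

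Dio3, the gene of the inactivating enzyme, had the lowest CPM of the 9 genes in every library and was the most variable of them. Dio3 was at 5.55, 1.68, 5.77 and 1.65 CPM in bexarotene replicates 1 to 4, against 7.36, 0.482, 5.45 and 2.51 CPM in vehicle replicates 1 to 4. Every library of replicates 1 and 3 lay above every library of replicates 2 and 4, under either treatment. The mean of replicates 1 and 3 was 3.40-fold that of replicates 2 and 4 under bexarotene and 4.28-fold under vehicle. Between treatments the means were 3.66 ± 2.31 CPM in the bexarotene libraries and 3.95 ± 3.05 CPM in the vehicle libraries (SD, n = 4 each), a log2 fold change of -0.11 ± 0.77 (SE) with an interval of -1.87 to 1.66. The adjusted p was 0.989, and the sign of the Dio3 fold change turned in 8 of 25 alternative fits. The log2 difference was -0.16 in replicates 1 and 3 but 0.57 in replicates 2 and 4, and the fold change with the striatum markers as a covariate was -0.78. Counts of Dio3 were as low as 28 in vehicle replicate 2, so this gene also carried the widest counting error of the 9. The neighbouring antisense gene Dio3os lies 895 bases from Dio3 with 0 shared exon bases, and its level was 0.0400 to 0.482 CPM in bexarotene libraries and 0.121 to 0.484 CPM in vehicle libraries.

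Set against each other per length, the level of Dio2 was above that of Dio3 in every library, by a factor that depended on the replicate. The ratio of Dio2 to Dio3, each in CPM per kilobase of transcript, was 3.17, 14.3, 2.96 and 19.6 in bexarotene replicates 1 to 4, against 3.61, 50.6, 3.34 and 13.7 in vehicle replicates 1 to 4. Replicates 1 and 3 held a ratio near that of each other in both groups, and all 4 were below every library of replicates 2 and 4.

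Hr encodes a corepressor of the thyroid hormone receptors and is itself induced by thyroid hormone in brain. Hr was at 11.1, 23.8, 10.6 and 27.4 CPM in bexarotene replicates 1 to 4, against 12.2, 38.2, 11.6 and 21.4 CPM in vehicle replicates 1 to 4. All libraries of replicates 2 and 4 exceeded all libraries of replicates 1 and 3, by a ratio of means of 2.36 under bexarotene and 2.51 under vehicle. The group means were 18.2 ± 8.63 CPM in the bexarotene libraries and 20.9 ± 12.4 CPM in the vehicle libraries (SD, n = 4 each). The log2 fold change was -0.20 ± 0.48 (SE), with an interval of -1.31 to 0.92 and adjusted p = 0.948. The Hr difference was -0.13 in replicates 1 and 3 and -0.17 in replicates 2 and 4. Leaving out vehicle replicate 2 turned the fitted value of Hr to 0.28, and it stayed negative when any other single library was left out. In that fit the vehicle group held replicates 1, 3 and 4, mostly from the lower set, so treatment and replicate number were mixed. With the replicate number as a block, the value was -0.15 with all 8 libraries kept. With the striatum markers as a covariate, the fitted value of Hr was 0.24.

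Klf9 encodes a zinc finger transcription factor that responds to thyroid hormone and to glucocorticoids. Klf9 was at 87.8, 158, 92.8 and 167 CPM in bexarotene replicates 1 to 4, against 130, 177, 122 and 143 CPM in vehicle replicates 1 to 4. Bexarotene replicates 1 and 3 were the lowest of the 8 libraries, and replicates 2 and 4 exceeded replicates 1 and 3 throughout. The means were 126 ± 41.7 CPM in the bexarotene libraries and 143 ± 24.6 CPM in the vehicle libraries (SD, n = 4 each), a log2 fold change of -0.18 ± 0.23 (SE) with an interval of -0.70 to 0.34. The adjusted p was 0.885. The log2 difference of Klf9 came to -0.48 in replicates 1 and 3 and to 0.02 in replicates 2 and 4, and the fitted value was 0.0011 with the striatum markers as a covariate.

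Thrsp encodes a nuclear protein linked to fat synthesis. Thrsp was at 13.1, 15.9, 14.5 and 21.4 CPM in bexarotene replicates 1 to 4, against 12.2, 13.9, 10.9 and 18.3 CPM in vehicle replicates 1 to 4. Each bexarotene library was above the vehicle library of the same number, but the labels do not name these as pairs. The groups overlapped, and replicate 4 was the highest library in both. The means were 16.2 ± 3.64 CPM in the bexarotene libraries and 13.8 ± 3.24 CPM in the vehicle libraries (SD, n = 4 each), a log2 fold change of 0.23 ± 0.19 (SE) with an interval of -0.20 to 0.66. Its adjusted p was 0.789, and 0.499 with the replicate number as a block. The log2 difference of Thrsp came to 0.26 in replicates 1 and 3 and to 0.21 in replicates 2 and 4. With the offset for length and GC content, the log2 fold change of Thrsp was 0.09.

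Nrgn encodes neurogranin, a calmodulin-binding protein of forebrain excitatory neurons. Nrgn was at 924, 1411, 1029 and 1793 CPM in bexarotene replicates 1 to 4, against 835, 1804, 1006 and 1345 CPM in vehicle replicates 1 to 4. Replicates 2 and 4 exceeded replicates 1 and 3 in both groups, by a ratio of means of 1.64 under bexarotene and 1.71 under vehicle. Between treatments the means were 1289 ± 395 CPM in the bexarotene libraries and 1247 ± 427 CPM in the vehicle libraries (SD, n = 4 each). The log2 fold change was 0.05 ± 0.28 (SE), with an interval of -0.60 to 0.69 and adjusted p = 0.985, and its sign turned in 6 of 25 alternative fits. With the striatum markers as a covariate it was 0.33 (adjusted p = 0.553), the highest of those fits. Nrgn differed by 0.09 in replicates 1 and 3 and by 0.03 in replicates 2 and 4.

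**Figure D2:**
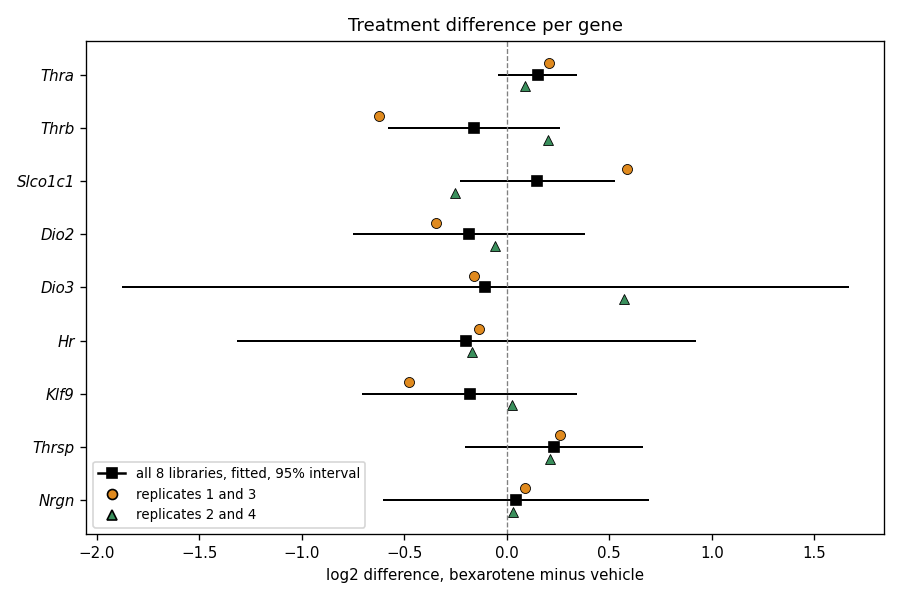
Log2 difference between bexarotene and vehicle for each gene (horizontal axis; positive is higher under bexarotene). Squares with lines are the fitted value over all 8 libraries with its 95% interval, circles the difference within replicates 1 and 3, and triangles that within replicates 2 and 4. Every interval includes 0, and circle and triangle lie on opposite sides of 0 for Thrb, Slco1c1, Dio3 and Klf9.

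The difference between replicate numbers was thus larger than that between treatments for several of these genes. In 3 of the 9 genes, Hr, Klf9 and Nrgn, every library of replicates 2 and 4 exceeded every library of replicates 1 and 3, as did 7.22% of all genes. In 1 gene, Dio3, the order was the opposite, as in 6.47% of all genes. These shares are descriptions, since the replicate numbers are not a treatment. The marker lists moved with the same libraries. The mean log2 level of the cortical excitatory neuron markers, centred on all 8 libraries, stood at -1.02 and -0.64 for bexarotene replicates 1 and 3 and at 0.42 and 0.55 in bexarotene replicates 2 and 4. In vehicle libraries it was -0.53 and 0.17 in replicates 1 and 3 and 0.58 and 0.48 in replicates 2 and 4. Striatum markers were at 1.76 and 1.26 in bexarotene replicates 1 and 3 and at 0.77 in vehicle replicate 1, but at -0.52 in vehicle replicate 3. Hypothalamus markers were at 1.51, 0.94 and 1.21 in the same 3 libraries that were high in striatum markers, and at -1.14 in vehicle replicate 3. In those 3 libraries Avp was at 48.5, 25.5 and 68.5 CPM (at most 1.83 CPM elsewhere). Oxt was at 6.02, 3.27 and 8.14 CPM (at most 0.955 CPM elsewhere). Pmch, Agrp, Pomc and Rax were at most 1.39 CPM in any library and did not set these 3 libraries apart. In vehicle replicate 3, Dio3 was at 5.45 CPM and Hr at 11.6 CPM. The part of tissue makeup in these values was not tested.

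**Figure D3:**
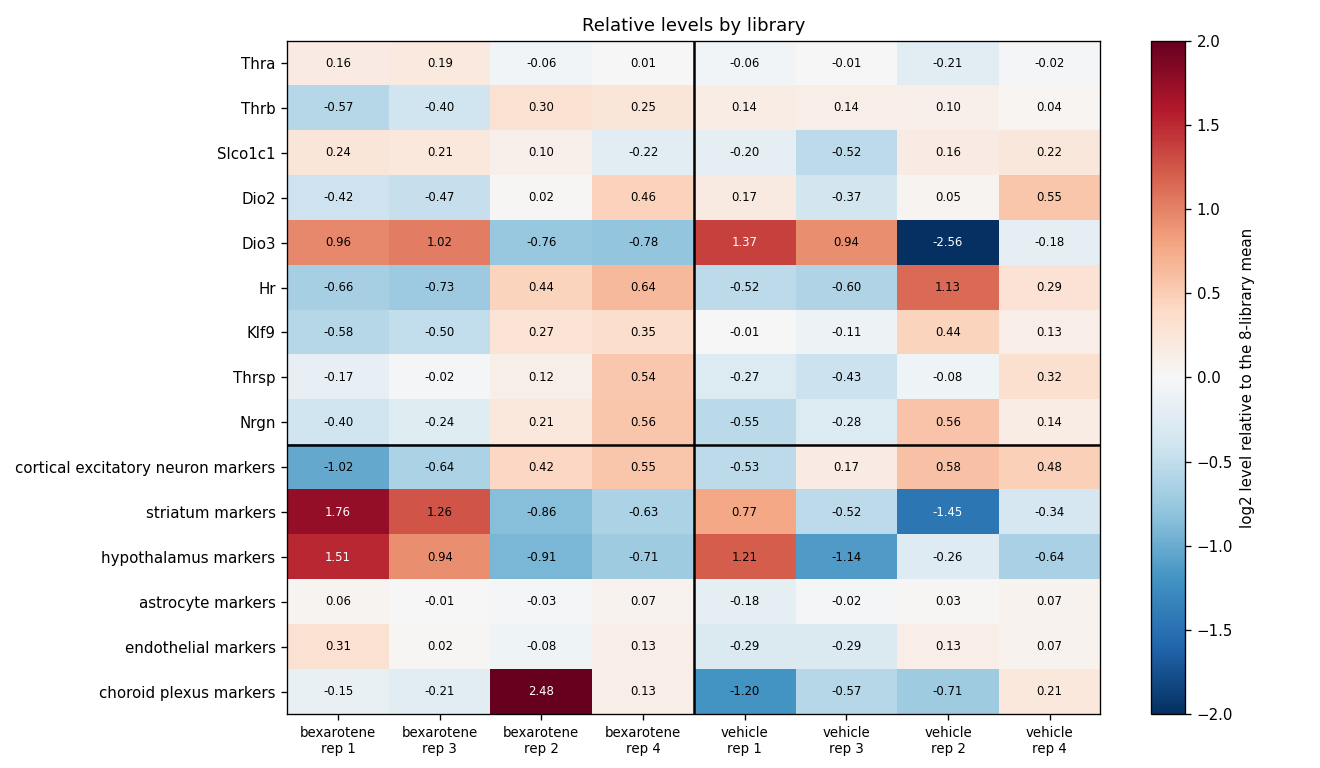
Log2 level of each gene and mean log2 level of 6 marker lists in each library (columns, bexarotene left, vehicle right), relative to the mean of the 8 libraries; colours saturate at 2 in either direction. Dio3 was positive and Hr, Klf9, Thrsp and Nrgn were negative in all 4 libraries of replicates 1 and 3, while striatum markers were positive in 3 of those 4.

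Estimates for Thrb, Klf9 and Slco1c1 differed between the sets of replicates, but no test of that change passed after adjustment. With replicates 1 and 3 alone, edgeR's quasi-likelihood test called Thrb lower (log2 fold change -0.62 ± 0.10, SE; adjusted p = 0.0312), Klf9 lower (-0.48 ± 0.08; adjusted p = 0.0312) and Slco1c1 higher (0.58 ± 0.12; adjusted p = 0.0431). That fit called 4.4% of all genes, 2.06% higher and 2.34% lower, from 2 libraries against 2, and 24.1% of genes had an unadjusted p below 0.05. Within these libraries treatment went together with the Xist, Ddx3y and striatum marker levels given above, so these cannot be told apart. With replicates 2 and 4 alone the test called 0 genes, and 5.27% of genes had an unadjusted p below 0.05. There the log2 fold changes were 0.20 for Thrb, 0.02 for Klf9 and -0.24 for Slco1c1. Over the 25 alternative fits the adjusted p ranged from 0.0312 to nearly 1 for Thrb and for Klf9, and from 0.0431 to nearly 1 for Slco1c1. A term for the change of the treatment effect between these sets of replicates, in edgeR's quasi-likelihood test, had adjusted p = 0.108 for Thrb, 0.215 for Klf9 and 0.156 for Slco1c1. Its unadjusted p was below 0.05 for these 3 genes and for 13.3% of all genes, and it was past the threshold after adjustment for 0 genes. The sets of replicates were chosen after the data were seen.

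Transcript length moved with the differences within replicates 1 and 3. The 4 genes with transcripts over 4000 nt, Thrb (4532 nt), Hr (5487 nt), Klf9 (4486 nt) and Dio2 (5815 nt), differed there by -0.62, -0.13, -0.48 and -0.34 on the log2 scale. The median over the 4454 genes of that length with a mean of at least 1 CPM was -0.14, with quartiles of -0.30 and 0.05. Among the shorter transcripts, Thrsp (1277 nt), Nrgn (1453 nt), Thra (2246 nt) and Slco1c1 (3178 nt) differed by 0.26, 0.09, 0.21 and 0.59, and Dio3 (2030 nt) by -0.16. The median over 9299 genes of at most 4000 nt was 0.08, with quartiles of -0.10 and 0.27. Thrb, Klf9 and Dio2 lay below the lower quartile of the longer genes. Slco1c1 lay above the upper and Dio3 below the lower quartile of the shorter ones. Within replicates 2 and 4 the corresponding medians of all genes were -0.03 and 0.02. The part of length in the members' values was not tested beyond the offset for length and GC content, with which the log2 fold changes over all 8 libraries were -0.11 for Thrb, -0.16 for Hr, -0.14 for Klf9 and -0.06 for Dio2.

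**Figure D4:**
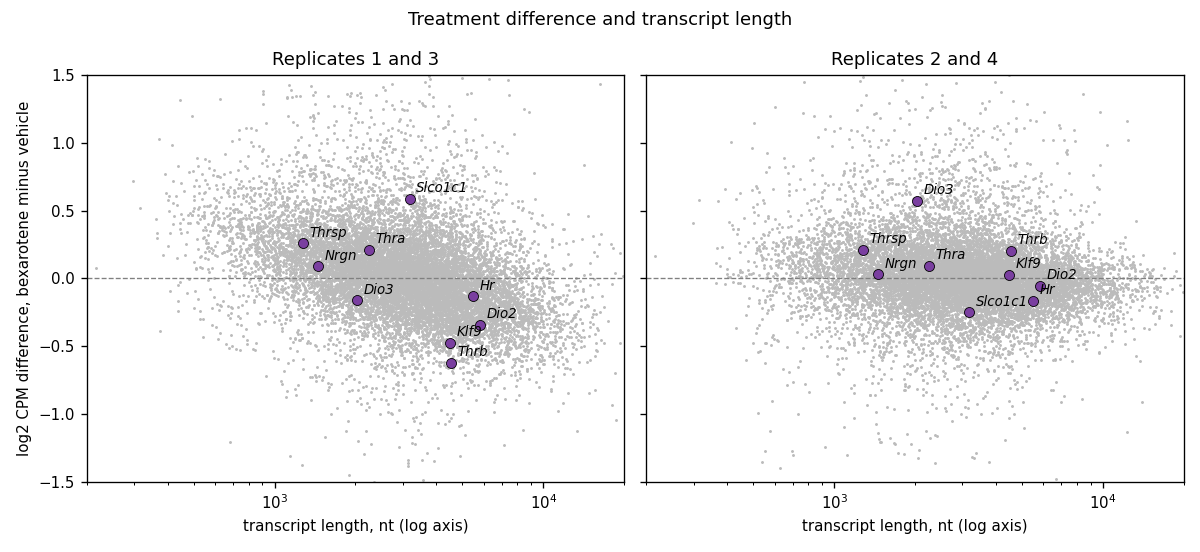
Log2 CPM difference between bexarotene and vehicle (vertical axis) against transcript length in nt (horizontal log axis), within replicates 1 and 3 (left) and replicates 2 and 4 (right). Grey points are 13753 genes with a mean of at least 1 CPM, of which 141 (left) and 48 (right) fall outside the plotted range of 1.5 in either direction, and purple points are the 9 genes. On the left the 4 genes with transcripts over 4000 nt are all below 0, and Slco1c1 is the highest of the 9.

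Levels of different genes were compared per kilobase of transcript. Nrgn was highest, at 887 ± 272 CPM per kilobase under bexarotene and 859 ± 294 under vehicle (SD, n = 4 each), followed by Thra at 262 ± 21.5 under bexarotene and 236 ± 14.8 under vehicle. Klf9 came next, at 28.1 ± 9.31 CPM per kilobase under bexarotene and 31.9 ± 5.47 under vehicle. Slco1c1, Thrsp and Dio2 followed, at 13.05 ± 1.80, 12.7 ± 2.85 and 11.2 ± 3.54 CPM per kilobase under bexarotene and 11.8 ± 2.68, 10.8 ± 2.53 and 12.8 ± 3.30 under vehicle. Their order differed between the groups and their spreads overlapped. Thrb, at 8.77 ± 2.61 under bexarotene and 9.81 ± 0.319 CPM per kilobase under vehicle, overlapped with these 3, so that the receptor gene Thra was far above Thrb on this scale in every library. Hr and Dio3 were lowest, at 3.32 ± 1.57 and 1.80 ± 1.14 CPM per kilobase under bexarotene and 3.80 ± 2.27 and 1.95 ± 1.504 under vehicle, and their spreads overlapped. Per kilobase, Dio3 was above Hr in every library of replicates 1 and 3 and below it in every library of replicates 2 and 4.

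For the 3 genes whose log2 level varied most over the 8 libraries, the genes of the most similar profile were found among 13975 genes by the mean absolute difference in centred log2 CPM. Dio3, with a range of 3.84 log2 units, was nearest to Nkain3 (0.21), Stac (0.27) and 4930429F24Rik (0.29). Nkain3, which encodes a membrane protein that interacts with the sodium pump, was at 1.91, 0.417, 1.75 and 0.467 CPM in bexarotene replicates 1 to 4, against 2.19, 0.241, 1.70 and 0.687 CPM in vehicle replicates 1 to 4. Hr, with a range of 1.85, was nearest to Dusp5 (0.08), which encodes a phosphatase of the kinase ERK, Ier5 (0.10), an immediate early response gene, and Vasn (0.12). Dusp5 was at 2.63, 6.92, 2.45 and 6.10 CPM in bexarotene replicates 1 to 4, against 3.06, 9.41, 2.67 and 4.94 CPM in vehicle replicates 1 to 4. Nrgn, with a range of 1.11, was nearest to Shd (0.07), Nfic (0.08) and Efhd2 (0.08). All 3 leading genes shared the split between replicates 1 and 3 and replicates 2 and 4.

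Other genes of the thyroid hormone pathway were read from 6 lists holding 57 genes, of which 51 were tested. By the same quasi-likelihood test 0 of the 51 passed, 5 had an unadjusted p below 0.05 against 8.77% of all genes, and in 4, or 7.84%, the groups did not overlap, against 5.77% of all genes. Of 7 transport and carrier genes tested, 4 were higher and 3 lower, with a median log2 fold change of 0.16. Ttr, which encodes transthyretin, the thyroxine carrier made by the choroid plexus, was at 68.0, 1397, 58.7 and 213 CPM in bexarotene replicates 1 to 4, against 6.14, 33.0, 14.8 and 26.3 CPM in vehicle replicates 1 to 4. Every bexarotene library lay above every vehicle library, and bexarotene replicate 2 was far above the rest. Its adjusted p was 0.445. All 7 choroid plexus markers had positive log2 fold changes, with a median of 1.49 and 0 past the threshold, and their summed level was 14.8 to 70.6 CPM in bexarotene libraries and 9.70 to 14.8 CPM in vehicle libraries, highest in bexarotene replicate 2. The summed level of 6 liver markers, liver being the other main source of transthyretin, was 49.8, 116, 38.6 and 42.3 CPM in bexarotene libraries 1 to 4, against 0.776, 84.7, 4.97 and 117 CPM in vehicle libraries 1 to 4. Among these, Ahsg was at 0 in vehicle replicates 1 and 3. The part of choroid plexus or liver RNA in the Ttr values, or of liver RNA in those of Thrsp, was not tested. Crym, which encodes a cytosolic binding protein of triiodothyronine, had a log2 difference of 0.37 ± 0.21 (SE) and adjusted p = 0.691.

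Among 3 genes of hormone metabolism, the median log2 fold change was 0.07. Iyd, which encodes iodotyrosine deiodinase, was at 0.383, 0.309, 0.204 and 0.213 CPM in bexarotene replicates 1 to 4, against 0.118, 0.0689, 0.108 and 0.151 CPM in vehicle replicates 1 to 4, low throughout, with adjusted p = 0.582. Of 15 receptor partners and coregulators, 6 were higher and 9 lower, with a median of -0.09. The coactivator gene Ncoa2 had the smallest p of these, at 62.1 ± 7.79 CPM in the bexarotene libraries and 76.8 ± 7.43 CPM in the vehicle libraries (SD, n = 4 each), a log2 fold change of -0.31 ± 0.11 (SE) with adjusted p = 0.494 in the same test. The retinoid X receptor genes that partner the thyroid receptors had log2 fold changes of 0.02 ± 0.09 for Rxra, 0.0019 ± 0.07 for Rxrb and 0.80 ± 0.77 for Rxrg (SE). By the same test the adjusted p of Rxrg was 0.828. Rxrg was at 26.6, 5.15, 20.3 and 7.64 CPM in bexarotene replicates 1 to 4, against 16.1, 1.29, 8.82 and 8.19 CPM in vehicle replicates 1 to 4. It was highest in bexarotene replicates 1 and 3 and vehicle replicate 1, which were also highest in striatum markers.

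Of 13 further genes that respond to thyroid hormone in the rodent brain, 7 were higher and 6 lower, with a median log2 fold change of 0.0046. Bdnf, which encodes a neurotrophin, had the smallest p, with -0.23 ± 0.10 (SE) and adjusted p = 0.573. Rasd2, a gene abundant in striatum, was at 123, 55.9, 95.3 and 71.9 CPM in bexarotene replicates 1 to 4, against 82.8, 62.7, 46.1 and 70.6 CPM in vehicle replicates 1 to 4, and was highest in the bexarotene libraries that were also highest in striatum markers. Of 9 response genes known from other tissues, 4 were higher and 5 lower, with a median of -0.11. Me1, the gene of malic enzyme, did not overlap between the groups, at 26.4 to 28.4 CPM under bexarotene and 21.7 to 25.8 CPM under vehicle. Its log2 fold change was 0.19 ± 0.08 (SE), with adjusted p = 0.565. Of the 7 genes of the thyroid axis, Tshb, Cga and Tg did not pass the filter on low counts, and the other 4 had a median of -0.03. Trh, which encodes the releasing hormone made in the hypothalamus, was at 24.1, 1.22, 29.7 and 1.39 CPM in bexarotene replicates 1 to 4, against 28.0, 0.517, 4.82 and 4.67 CPM in vehicle replicates 1 to 4. It was high in the 3 libraries that were also high in the hypothalamus markers Avp and Oxt.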

How the data were processed

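RNA was extracted with an RNeasy kit and libraries were made with a stranded TruSeq mRNA kit, per the labels' protocols. The authors deposited 1 table of raw counts, with a RefSeq transcript in each row, and the submitters' processing notes name the build mm9 and edgeR. No aligner, counting program, strand setting or annotation release is named in the sources used. The table held 28644 rows, and 0 columns of values were left out.

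Groups came from the sample titles. edgeR 4.0.16 (R 4.3.3) fitted all rows that passed its default filter, with TMM factors, robust quasi-likelihood dispersion and the group as the only term, and Benjamini-Hochberg adjustment ran over 21285 rows at a threshold of 0.05. Log2 CPM used a prior count of 2. SEs come from the F statistic, and intervals from the t distribution of the fit. Scripts were tested on simulated data. Transcript lengths and GC content were matched from GENCODE M21 by RefSeq accession for 97% of rows. They are of GRCm38, and no coordinate was converted.

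Alternatives were other normalizations, filters, row choices and tests (DESeq2 1.42.0, edgeR's exact test), the replicate number as a block, covariates for library cluster, Y-linked genes and striatum markers, a length and GC offset (mgcv 1.9.3), and leaving out each library. The fits on replicates 1 and 3 or 2 and 4 alone, and the interaction term, were added after the data were seen. The members and all lists were chosen with earlier results of these data known.

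The titles number replicates 1 to 4 in both groups. After subtraction of the group mean, bexarotene and vehicle libraries of 1 number had correlations across genes of 0.43, 0.28, 0.14 and 0.16, all over 0.1, which met the criterion for pairs. The reported values are nonetheless from the unpaired fit, with the block as an alternative. Bexarotene replicate 3 correlated with vehicle replicate 1 at 0.44, so pairs and the replicate clusters cannot be told apart. The exact permutation test with 4 libraries against 4 cannot give a p below 0.0286. Named genes are the 9 members, up to 3 genes per list by smallest p, the neighbours Nr1d1 and Dio3os, and the nearest profiles of the 3 most variable members. Ddx3y, Xist, Rxra, Rxrb, Rxrg, Drd2 and other markers were named after their values were seen. A gene that the rule on smallest p selects is not reported here.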

Additional observations from a re-analysis of the deposited data

How the results depend on the processing

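Over 25 alternative fits for each of the 9 genes, 225 in all, 202 kept the direction and the side of the threshold, 20 turned the direction and 3 passed the threshold. In the 23 fits other than those on replicates 1 and 3 or 2 and 4 alone, 0 of the 9 genes passed. The sign held in every fit for Thra, Dio2 and Thrsp. The replicate block moved Dio3 to 0.13 and turned no other gene, and it changed no call among the 9 genes or in the count of genes called. With the library cluster term the SE was smaller than in the main fit for each of the 9 genes. It was 0.15 for Hr, 0.11 for Klf9, 0.38 for Dio3 and 0.11 for Nrgn, against 0.48, 0.23, 0.77 and 0.28 in the main fit. In the quasi-likelihood test with that term, Thra had an unadjusted p of 0.0493 and an adjusted p of 0.392. With the length and GC offset and the block together, the log2 fold change was 0.025 for Dio3 and -0.076 for Nrgn, and with the offset alone -0.058 for Nrgn. With the Y-linked covariate it was 0.73 for Dio3 and -0.047 for Nrgn, and with the striatum covariate 0.24 for Hr, 0.0011 for Klf9, 0.33 for Nrgn and -0.78 for Dio3. With replicates 2 and 4 alone it was 0.20 for Thrb, 0.016 for Klf9, 0.16 for Dio3 and -0.24 for Slco1c1. With replicates 1 and 3 alone Thrb (-0.62), Klf9 (-0.48) and Slco1c1 (0.58) passed. The cause was not tested in these cases. Leaving out 1 library gave -0.47 to 0.38 for Dio3, -0.15 to 0.28 for Nrgn and -0.46 to 0.28 for Hr.

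The test called 1 gene higher and 0 lower. DESeq2 called 69 higher and 20 lower, edgeR's exact test 34 and 3, the fit with the library cluster term 3 higher, and the fit on replicates 1 and 3 alone 332 higher and 378 lower. Replicates 2 and 4 alone gave 0 higher. Without bexarotene replicate 2 there were 2 higher, and 1 without any other library. Of 175 medians of pathway lists, 4 moved by more than the spread between replicates. Depth limits Dio3 most, with 28 counts in vehicle replicate 2.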
